A study of Mus musculus with 8 samples.

Results

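Genes of the beta-protocadherin cluster, Pcdhb1 to Pcdhb20, were measured in the hippocampi of aged mice that carry a transgene for mutant amyloid precursor protein, and none of them differed between mice with impaired and with intact memory by an adjusted p under 0.05. The genes were taken by symbol, as all clustered protocadherins of the alpha, beta and gamma clusters that the array's probe table names, without a filter on their level. This gave 20 of the 19505 named genes, each read by 1 probe set. All 20 belonged to the beta cluster, which has 22 genes in RefSeq (mouse assembly GRCm38.p6, chromosome 18), so that the alpha and gamma clusters, with 14 and 22 genes there, and the last 2 beta genes were not analysed here. The 8 mice had B6.Cg-Tg(APPswe)E1-2Dbo/J as their genotype, were 18 to 20 months old and were killed after the Morris water maze, in which a mouse learns where a platform is hidden under water. The labels class 4 mice as memory impaired and 4 as having intact memory, and the transgene is common to both groups. Mice without it were not analysed here. Each hippocampus was read on 1 array of 1 colour. Values are log2 expression as made by robust multi-array averaging (RMA), so that a difference of 1 is a doubling.

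Clustered protocadherins are cadherin-like adhesion molecules of the neuronal surface. Each neuron switches on a small and largely random subset of them, which gives it an identity by which its own branches recognise and avoid one another, because the proteins bind like to like across membranes. Choice of a promoter depends on DNA looping by CTCF and cohesin and on DNA methylation. The beta genes each consist of a single coding exon and lack the shared constant exons that alpha and gamma transcripts carry. They are close relatives, so that a probe may read more than 1 of them and the assignment of a value to 1 gene is uncertain to that extent. In whole hippocampus the value of a gene is an average over cells, so that a change in which neurons use a gene cannot be told apart from a change in its RNA per cell. The same holds for fewer cells of a type and less RNA per cell.

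The arrays hold probe sets for introns, which serve as a measure of background, with a median of 5.26, a 75th percentile of 6.30 and a 95th percentile of 7.92 over 5222 of them. Of the 20 beta genes, 18 had a mean over the 8 mice above the 75th percentile, a share of 90%, against 61.5% of all named genes. Only 4 of the 20, or 20%, lay above the 95th percentile, against 34.5% of all named genes. These 4 were Pcdhb8, Pcdhb9, Pcdhb17 and Pcdhb20. Pcdhb7 stood at 5.50, between the median and the 75th percentile of the introns, and Pcdhb1 at 3.97, below their median. A filter that leaves out the 25% of genes with the lowest means kept 19 of the 20, all but Pcdhb1. Levels of different genes come from different probes and were not set against each other. As a check of the labelled tissue, 5 of 5 pyramidal neuron markers, 6 of 7 interneuron markers and 3 of 6 dentate granule cell markers lay above the 95th percentile of the introns. So did 7 of 8 thalamus markers and 4 of 8 choroid plexus markers. The check thus does not separate hippocampus from tissue at its border.

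**Figure D1:**
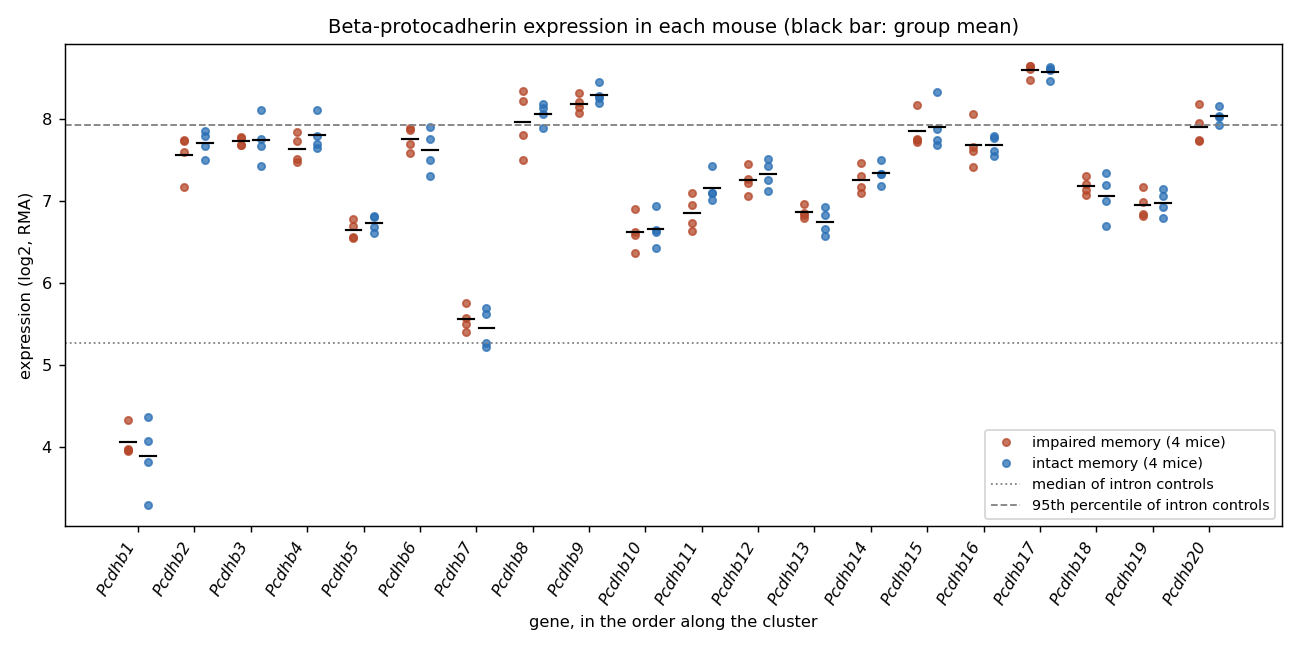
Expression (log2, RMA) of the 20 beta-protocadherin genes in each mouse, with impaired mice in red on the left and intact mice in blue on the right of each gene, in the order along the cluster. Black bars are group means, and grey lines are the median (5.26) and the 95th percentile (7.92) of the intron controls. The 2 groups overlap for every gene.

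Group means were lower in the impaired mice for 13 of the 20 genes and higher for 7, which is 65% lower, against 50.4% of all 19505 named genes. The median difference of the 20 genes, impaired minus intact, was -0.050, and that of all named genes -0.00132. With limma and Benjamini-Hochberg adjustment over all named genes, 0 of the 20 passed an adjusted p of 0.05, with values from 0.963 to 0.998, and neither did any other gene (0.0% of 19505). At an unadjusted p under 0.05 there was 1 of the 20, or 5%, a share near the background of 4.94% (963 genes). That gene was lower in the impaired mice, as were 2.19% of all named genes at this threshold. When limma's prior was made robust and allowed to follow intensity, 1 gene of all 19505 was called, Scg5, and still 0 of the 20. The 4 impaired and the 4 intact values overlapped for all 20 genes, where 2.76% of all named genes had groups that do not overlap. For 13 of the 20 genes the difference was smaller than its own standard error, which held for 64.9% of all named genes. The 95% interval of the difference stayed within 0.5 on the log2 scale in either direction, a 1.41-fold change, for 18 of the 20, so that larger differences than this lie outside the intervals of all but Pcdhb1 and Pcdhb11.

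**Figure D2:**
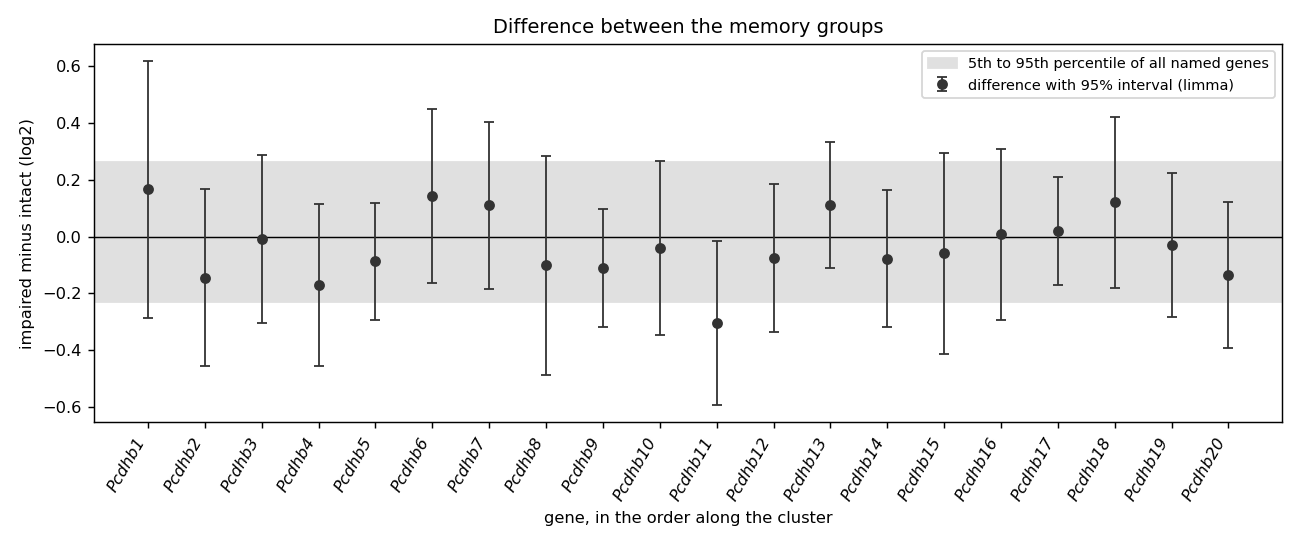
Difference between the memory groups (impaired minus intact, log2) for each beta-protocadherin gene in the order along the cluster, with the 95% interval from limma. The grey band spans the 5th to the 95th percentile of all named genes (-0.23 to 0.26). It holds 19 of the 20 differences, and the interval of Pcdhb11 alone leaves out 0.

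Pcdhb11 had the largest difference among the 20. Its values were 6.73, 6.63, 6.95 and 7.10 in impaired mice 1 to 4, against 7.09, 7.02, 7.43 and 7.10 in intact mice 1 to 4. Impaired mice 1, 2 and 3 lay below every intact mouse, while impaired mouse 4 lay within the intact range. The group values were 6.85 ± 0.21 in the impaired group and 7.16 ± 0.18 in the intact group (SD, n = 4 each). On the log2 scale they differed by -0.31 (standard error 0.13, 95% interval -0.59 to -0.016), or 1.24-fold lower with impaired memory, and the adjusted p of 0.963 from limma does not pass. Intact mouse 3 had the highest value, and it also had by far the lowest score of thalamus markers, -1.48, against -0.24 to 0.50 in the other 7 mice. This score is the mean deviation of 8 marker genes from their means over all mice. Without intact mouse 3 the difference of Pcdhb11 was -0.22, and with the thalamus score as a covariate -0.24 (limma, adjusted p = 0.94 and 0.907). Since the thalamus score mostly sets intact mouse 3 apart, these 2 fits are not independent. A score of 8 choroid plexus markers, made in the same way, was also low in intact mouse 3, at -0.94, and lowest in impaired mouse 3, at -1.08. With this score as a covariate the difference of Pcdhb11 was larger, at -0.36 (limma, adjusted p = 0.999). Over all 16 alternatives it ran from -0.39, without impaired mouse 4, to -0.22, and it kept its sign in each, with adjusted p between 0.659 and 1.00 (limma).

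After Pcdhb11, the lowest difference was that of Pcdhb4, and after Pcdhb1, described next, the highest was that of Pcdhb6. Pcdhb4 was at 7.73, 7.51, 7.47 and 7.85 in impaired mice 1 to 4, against 8.11, 7.69, 7.79 and 7.64 in intact mice 1 to 4. Its highest value was in an intact mouse and its lowest in an impaired one, and the remaining 6 values of the groups were mixed. The difference was -0.17 (95% interval -0.46 to 0.12), and -0.071 without intact mouse 1. Pcdhb6 was at 7.59, 7.70, 7.89 and 7.86 in impaired mice 1 to 4, against 7.76, 7.50, 7.91 and 7.30 in intact mice 1 to 4. Here the intact group held both the highest and the lowest value, and the difference was 0.14 (95% interval -0.16 to 0.45). Over the 16 alternatives it ran from 0.039, without intact mouse 4, to 0.24, without intact mouse 3.

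The highest difference of the 20, 0.17 (95% interval -0.29 to 0.62), belonged to Pcdhb1, whose promoter is known to lack the sequence element that binds CTCF at most other genes of the clusters. It was at 3.97, 3.95, 3.95 and 4.33 in impaired mice 1 to 4, against 4.07, 4.37, 3.29 and 3.81 in intact mice 1 to 4. All of these values lay below the median of the introns, so that its difference is one between values at background. Intact mouse 3 was the lowest of the 8, and without it the difference was -0.031, of the opposite sign. With the score of choroid plexus markers as a covariate it was 0.36 (limma, adjusted p = 0.999, within 0.945 to 1.00 over 15 alternatives). With the score of thalamus markers as a covariate it was 0.047 (limma, adjusted p = 0.984, in the same range).

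Pcdhb8 varied most between mice among the genes above background. Its values were 8.34, 7.80, 7.50 and 8.22 in impaired mice 1 to 4, against 8.18, 8.13, 7.89 and 8.07 in intact mice 1 to 4. Impaired mice 1 and 4 were the highest of all 8 and impaired mice 3 and 2 the lowest, so that the impaired group spanned the intact group on both sides. The group values were 7.97 ± 0.39 in the impaired group and 8.07 ± 0.13 in the intact group (SD, n = 4 each), and the difference was -0.10 (95% interval -0.49 to 0.29). It was -0.23 without impaired mouse 1, and it turned to 0.055 without impaired mouse 3 and to 0.059 with the choroid plexus score as a covariate. Pcdhb17, singled out after its values were seen, varied least. It was at 8.65, 8.65, 8.47 and 8.62 in impaired mice 1 to 4, against 8.60, 8.62, 8.63 and 8.46 in intact mice 1 to 4, and its difference was 0.019 (95% interval -0.17 to 0.21), the tightest of the intervals. The range over the 8 mice was 0.19 for Pcdhb17 and 1.07 for Pcdhb1, with a median of 0.59 over the 20 genes, against 0.52 over all named genes. The spread was larger in the impaired than in the intact mice for 10 of the 20 genes and smaller for the other 10, and it was larger in the impaired mice for 52% of all named genes. For the 19 genes other than Pcdhb1 the median range was 0.57 and the median residual SD 0.20, against 0.51 and 0.17 for the 9690 named genes with means in the range of these 19. Whether the beta genes vary more between mice than other genes of like level was not tested.

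At the start of the cluster, after Pcdhb1, the group values (SD, n = 4 each) of Pcdhb2 were 7.56 ± 0.27 in the impaired group and 7.70 ± 0.15 in the intact group, a difference of -0.14, and impaired mouse 1 was the lowest of all 8 at 7.17. Pcdhb3 was at 7.73 ± 0.052 in the impaired group and 7.74 ± 0.28 in the intact group, a difference of -0.0096. Its 4 impaired values, 7.68 to 7.78, lay close together inside the intact range of 7.43 to 8.11. Pcdhb5 was at 6.64 ± 0.11 in the impaired group and 6.73 ± 0.10 in the intact group, a difference of -0.087. Pcdhb7 was at 5.56 ± 0.15 in the impaired group and 5.45 ± 0.24 in the intact group, a difference of 0.11. The 95% interval included 0 for each of these 4 genes.

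In the middle of the cluster, the group values (SD, n = 4 each) of Pcdhb9 were 8.19 ± 0.11 in the impaired group and 8.30 ± 0.11 in the intact group, a difference of -0.11. It was highest in intact mouse 4, at 8.46, and lowest in impaired mouse 4, at 8.07, and the groups overlapped in between. Pcdhb10 was at 6.62 ± 0.22 in the impaired group and 6.66 ± 0.21 in the intact group, a difference of -0.041. Pcdhb12 was at 7.25 ± 0.16 in the impaired group and 7.33 ± 0.17 in the intact group, a difference of -0.075. In Pcdhb10 and Pcdhb12, as in Pcdhb14 below, the SD within each group exceeded the difference between the groups. Pcdhb13 was at 6.86 ± 0.072 in the impaired group and 6.75 ± 0.16 in the intact group, a difference of 0.11. Pcdhb14 was at 7.26 ± 0.16 in the impaired group and 7.34 ± 0.13 in the intact group, a difference of -0.078. The 95% interval included 0 for each of these 5 genes.

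Towards the end of the cluster, Pcdhb15 was at 7.75, 8.17, 7.72 and 7.75 in impaired mice 1 to 4, against 7.74, 7.88, 8.33 and 7.68 in intact mice 1 to 4. Impaired mouse 2 and intact mouse 3 stood above the other 6 mice, 1 in each group, and the difference was -0.059 (95% interval -0.41 to 0.29). Pcdhb16, which has been located at postsynaptic sites, was at 7.69 ± 0.27 in the impaired group and 7.68 ± 0.12 in the intact group (SD, n = 4 each), a difference of 0.0091. Its highest value, 8.06, was also that of impaired mouse 2. Pcdhb18 was at 7.18 ± 0.10 in the impaired group and 7.06 ± 0.28 in the intact group, a difference of 0.12, with its lowest value, 6.70, in intact mouse 4. Pcdhb19 was at 6.95 ± 0.16 in the impaired group and 6.98 ± 0.16 in the intact group, a difference of -0.030. Pcdhb20 was at 7.90 ± 0.21 in the impaired group and 8.04 ± 0.10 in the intact group, a difference of -0.14. The 95% interval included 0 for each gene from Pcdhb15 to Pcdhb20.

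Lower and higher genes lay in both parts of the cluster. Among the first 10 genes 7 were lower in the impaired mice, and among the last 10 there were 6. The signs changed along the cluster so as to form 8 runs, of which the longest, from Pcdhb8 to Pcdhb12, held 5 genes that were all lower. No test was made of this order.

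By mouse, the number of the 20 genes above their own mean over all mice was 8, 12, 8 and 9 in impaired mice 1 to 4, and 15, 14, 12 and 7 in intact mice 1 to 4. Intact mouse 4 thus had the fewest and intact mouse 1 the most, both in the intact group. The median deviation of the 20 genes was -0.058, 0.054, -0.065 and -0.012 in impaired mice 1 to 4, against 0.073, 0.023, 0.056 and -0.059 in intact mice 1 to 4. Over all named genes it lay between -0.011 and 0.012 on the 8 arrays. Impaired mouse 1 and intact mouse 4 each had the lowest value of 5 of the genes, and intact mice 2 and 3 each had the highest value of 5. No mouse was low or high for all of the genes, and the mice with low and with high values came from both groups.

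**Figure D3:**
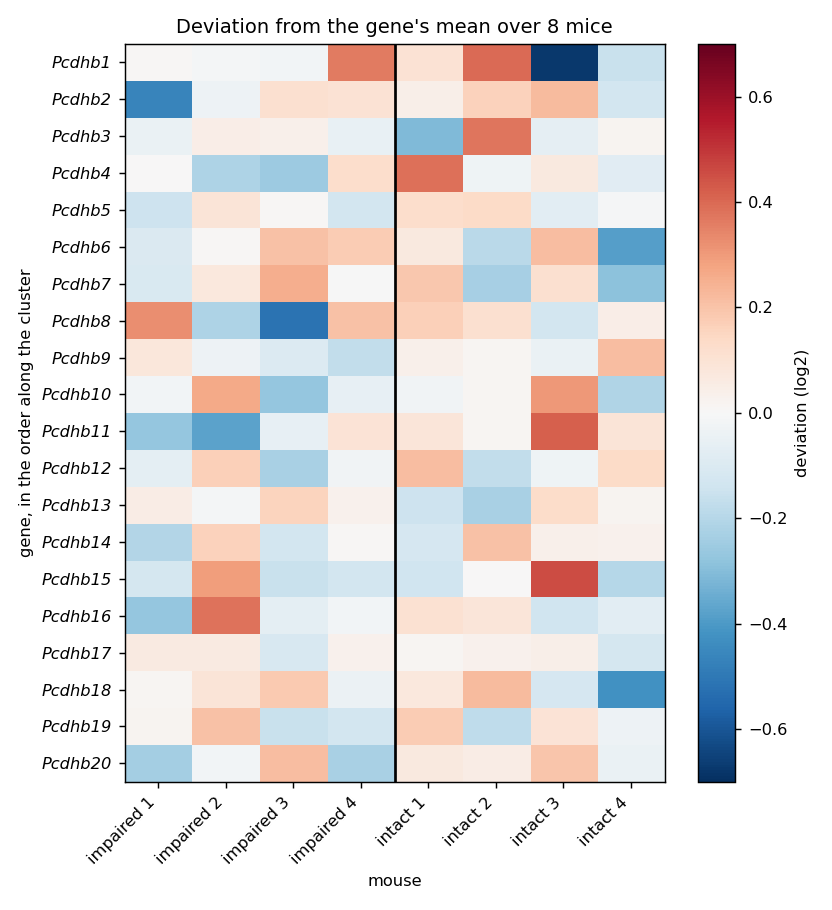
Deviation of each beta-protocadherin gene (rows, in the order along the cluster) from its own mean over the 8 mice, on the log2 scale, for impaired mice 1 to 4 (left of the black line) and intact mice 1 to 4 (right). Red is above and blue below the mean. Single deviations run from -0.68 (Pcdhb1 in intact mouse 3) to 0.45 (Pcdhb15 in the same mouse), and no column is of 1 colour.

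Among the 11 measured protocadherins outside the clusters, which are mostly delta-protocadherins with binding partners and expression patterns of their own, 7 were lower and 4 higher in the impaired mice, with a median difference of -0.040. None had an unadjusted p under 0.05, where 4.94% of all named genes did. Their differences ran from -0.22 for Pcdh18 to 0.10 for Pcdh8, and the interval of each included 0.

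Genes known for promoter choice, looping or methylation at the clusters were described through 22 measured genes of a list. Of them 13 were lower and 9 higher in the impaired mice, with a median difference of -0.018, 2 had an unadjusted p under 0.05, both higher, where 2.74% of all named genes were, and 0 passed the adjustment. Ctcf, the factor that anchors the loops, was at 9.18 ± 0.055 in the impaired group and 9.07 ± 0.13 in the intact group (SD, n = 4 each), a difference of 0.11 (95% interval -0.093 to 0.31). Rad21, a subunit of cohesin, differed by 0.0061 (95% interval -0.18 to 0.19), and Smchd1, which is needed for silencing at these clusters, by 0.0099 (95% interval -0.29 to 0.31). Dnmt3b, the methyltransferase that marks the promoters early in development, was at 4.73, below the median of the introns, and differed by -0.021 (95% interval -0.32 to 0.28).

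The 2 genes with an unadjusted p under 0.05 were Pds5a, a cohesin regulator, and Dnmt1, the methyltransferase that maintains methylation. Pds5a was at 8.63, 8.61, 8.61 and 8.53 in impaired mice 1 to 4, against 8.42, 8.41, 8.38 and 8.38 in intact mice 1 to 4, and the groups did not overlap. The groups differed by 0.20 (standard error 0.075; limma, adjusted p = 0.963). Its paralogue Pds5b, also given after its values were seen, differed by -0.17, in the other direction (95% interval -0.39 to 0.041). Dnmt1 was at 7.83, 8.07, 7.91 and 7.78 in impaired mice 1 to 4, against 7.37, 7.79, 7.63 and 7.72 in intact mice 1 to 4, with intact mouse 2 inside the impaired range. The groups differed by 0.27 (standard error 0.11; limma, adjusted p = 0.963). The groups also did not overlap for Nipbl, which loads cohesin, at -0.15 (95% interval -0.33 to 0.036), and for the repressor Rest, at 0.31 (95% interval -0.031 to 0.65), both named after their values were seen. In all, 3 of the 22 had groups that do not overlap, where 2.76% of all named genes did.

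Binding, cleaving and signalling partners of the clustered protocadherins were given by 20 measured genes of a further list, among them the kinase Ptk2b, the sheddase Adam10 and the subunits Wasf1 and Nckap1 of the WAVE complex, which drives actin branching. Of these, 12 were lower and 8 higher in the impaired mice, with a median difference of -0.025, and 0 had an unadjusted p under 0.05. The differences ran from -0.22 for Pdcd10 to 0.21 for Nckap1, and the interval of each included 0.

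Genes next to the clusters were taken by their order in RefSeq. Slc25a2, a mitochondrial carrier of ornithine, and Taf7, a subunit of the general transcription factor TFIID, lie between the beta and the gamma genes. Slc25a2 was at 5.87, 5.61, 5.80 and 5.64 in impaired mice 1 to 4, against 5.44, 5.02, 5.34 and 5.51 in intact mice 1 to 4. Every impaired mouse lay above every intact mouse, and the groups differed by 0.41 (standard error 0.12; limma, adjusted p = 0.963). Taf7 was at 6.17, 6.15, 6.10 and 6.37 in impaired mice 1 to 4, against 5.92, 6.06, 5.81 and 6.06 in intact mice 1 to 4, again without overlap, which 2.76% of all named genes showed, and the groups differed by 0.23 (standard error 0.10; limma, adjusted p = 0.963). Both genes had an unadjusted p under 0.05 (limma), as had 4.94% of all named genes. Over all 16 alternatives the difference ran from 0.30 to 0.47 for Slc25a2 and from 0.18 to 0.29 for Taf7. The unadjusted p stayed under 0.05 in all 16 for Slc25a2, but only in 10 for Taf7. Neither gene passed the adjustment, and both had means below the 75th percentile of the introns, at 5.53 and 6.08. On the outer sides, Hars, Hars2 and Zmat2 before the alpha cluster differed by 0.14, -0.077 and -0.028, and Diaph1, Hdac3 and Rell2 after the gamma cluster by -0.064, 0.046 and 0.035, and the interval of each of these 6 included 0.

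**Figure D4:**
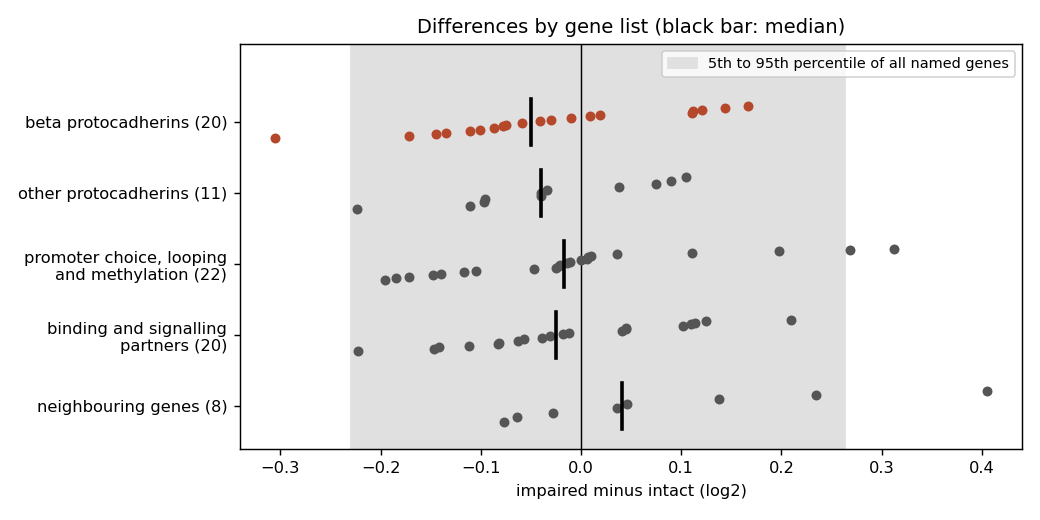
Differences between the memory groups (impaired minus intact, log2) of the 20 beta protocadherins (red), 11 other protocadherins, 22 genes of promoter choice, looping and methylation, 20 partners and 8 neighbouring genes, each point a gene and each black bar a list's median. The grey band spans the 5th to the 95th percentile of all named genes (-0.23 to 0.26). Pcdhb11 (-0.31) lies below the band, and Dnmt1 (0.27), Rest (0.31) and Slc25a2 (0.41) lie above it.

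Markers of neurons and of other cell types, and of tissue at the border of the dissection, were read on the same arrays. The mean level of the measured pyramidal neuron markers was 9.86 to 10.05 in the impaired mice and 9.64 to 10.28 in the intact mice. That of interneuron markers was 9.33 to 9.66 in the impaired and 9.34 to 9.65 in the intact mice. Median differences were -0.056 for pyramidal neuron, -0.0098 for interneuron and -0.066 for granule cell markers. They were 0.033 for astrocyte, -0.12 for oligodendrocyte, 0.00757 for microglia and -0.10 for endothelial markers. In all lists 0 markers had an unadjusted p under 0.05, where 4.94% of all named genes did. Only the pyramidal neuron marker Wfs1, named after its values were seen, had groups that do not overlap, as had 2.76% of all named genes. It was higher in the impaired mice by 0.25 (95% interval -0.045 to 0.54). The mean level of the choroid plexus markers was 7.30 to 8.72 in the impaired and 7.45 to 9.33 in the intact mice. Of these markers, 8 of 8 were lower in the impaired group. The mean level of the thalamus markers was 9.01 to 9.72 in the impaired and 7.74 to 9.72 in the intact mice. Here 8 of 8 markers were higher in the impaired group. That direction rested on intact mouse 3, without which 7 of the 8 thalamus markers were lower in the impaired group, at a mean level of 9.41 in the impaired and 9.46 in the intact mice. Without impaired mouse 3, 7 of the 8 choroid plexus markers were lower, and the median difference of the 8 was -0.22 in place of -0.57. When any other single mouse was left out, 8 of 8 were lower. The median difference then ran from -0.93, without intact mouse 3, to -0.29, without intact mouse 1. Mean levels of the 20 beta genes were 7.15 to 7.27 in the impaired and 7.14 to 7.28 in the intact mice. The part of these tissues in the differences of the beta genes was not tested beyond fits with the 2 scores as covariates. Under these, 12 (choroid plexus) and 11 (thalamus) of the 20 genes were lower in the impaired group and 0 passed the adjustment. The thalamus score was by far the lowest in intact mouse 3, so that this covariate cannot be told apart from other traits of that mouse.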

How the data were processed

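Total RNA of 8 hippocampi, 1 per mouse, was amplified from 1 ng with a whole-transcript kit, labelled with biotin and hybridised to 1-colour Affymetrix arrays, per the labels' protocols. The authors deposited log2 values made with RMA, per the submitters' processing notes. The version of RMA and the build were not given in the sources used here. RMA brings all arrays to 1 distribution and compresses differences of dim genes. The table held 29129 probe sets, of which 19572 had 1 gene symbol in the platform's table and 0 had several. For the 55 of 19505 genes with more than 1 probe set the brightest was used. All 20 protocadherins matched RefSeq by Entrez identifier; RefSeq served only for names and gene order, and no coordinates or sequences are printed.

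The 4 impaired and 4 intact mice were compared (impaired minus intact) over all 19505 genes by the two-sided moderated test of limma (version 3.58.1, under R 4.3.3), with no filter on low values, Benjamini-Hochberg adjustment and a threshold of 0.05. Precision is limited by the number of arrays. The fit was tested on simulated data. The genes and lists were chosen with earlier results of these data known. Genes were named by these rules: C-type protocadherins where measured; protocadherins with an unadjusted p under 0.05, with the 2 lowest or 2 highest differences, with the 3 largest SDs or with groups that do not overlap; Ctcf, Rad21, Smchd1 and Dnmt3b; list genes with an unadjusted p under 0.05; and the 3 nearest genes on each side of the clusters and those between. The other members are given by group values, and further list genes only at the ends of a range. Alternatives were a filter on low values, the mean of probe sets, an intensity trend with a robust prior, array weights, renewed quantile normalization, the marker scores as covariates, a replicate block and leaving out each mouse. No scan date or slide was used here, so batches were not tested.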

Additional observations from a re-analysis of the deposited data

Results flagged for a closer look

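In groups of 4 mice, a value was looked at again when its gap to the nearest other value, divided by the range of the group, exceeded Dixon's 95% critical value. Among the 20 beta protocadherins, with 2 groups each, this marked 2 of 40 groups, and chance marks about 1 in 20. Pcdhb15 stood at 8.17 in impaired mouse 2, against 7.72 to 7.75 in the other 3 impaired mice. Pcdhb1 stood at 4.33 in impaired mouse 4, against 3.95 to 3.97 in the other 3, all below the median of the intron controls. Among the other genes named by the rules, Dnmt3b was 4.37 in impaired mouse 3, against 4.80 to 4.88 in the other impaired mice, also below the median of the introns. Hars was 8.95 in the same mouse, against 9.10 to 9.13. With these genes, 4 of 68 groups were marked. List genes given only after their values were seen, such as Rest, Nipbl and Pds5b, were not examined.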

How the results depend on the processing

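No beta protocadherin passed the adjustment under any of 16 alternatives, where the lowest adjusted p was 0.659 (Pcdhb11 without impaired mouse 4, limma), and 11 of the 20 kept the sign of their difference in all of them. Of all named genes, 0 were called under each alternative except limma's intensity trend with robust prior, which called 1, Scg5. The number of the 20 genes with an unadjusted p under 0.05 was 2 with the choroid plexus score (Pcdhb1 and Pcdhb11), 0 with the thalamus score, and 0 to 1 when each mouse was left out, since Pcdhb11 no longer had such a p without impaired mouse 1 or 2 or intact mouse 1, 3 or 4. The share of all named genes with such a p was 4.25% with the choroid plexus score and 5.29% with the thalamus score. It was 3.99% to 6.78% when each mouse was left out. When each mouse was left out, the median difference of the 20 genes ran from -0.12, without impaired mouse 2, to 0.0021, without impaired mouse 3. The number lower in the impaired group ran from 10, without impaired mouse 3, to 16, without intact mouse 4. Over all named genes the median difference in these fits lay between -0.0054 and 0.0036. The cause of the shifts in the 20 genes was not tested. With the replicate number as a block the median difference was -0.050, with 13 of 20 lower, 1 with an unadjusted p under 0.05 and 0 called. In that fit 4.85% of all named genes had such a p. Mice of the same number did not deviate together (correlation across genes -0.093 to 0.022). Whether the numbers pair the mice cannot be settled by these correlations. With 4 mice a group, differences of the size of the standard errors given cannot be resolved.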
